A study of Mus musculus with 8 samples.

Results

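Of the 50599 gene records measured in each library, 5 are described here, namely mt-Co1, mt-Co2, mt-Co3, mt-Atp8_6 and mt-Cytb. They were chosen by name as the mitochondrial messengers of complex IV, ATP synthase and complex III, each taken alone and with its nuclear copies added (6 copies in all, none for mt-Cytb). Heart RNA came from 12-week-old male C57BL/6N mice, and each of the 8 libraries came from 1 animal. The 4 knockout mice carried Lrpprc loxP/loxP alleles with a Cre transgene and lacked the gene in heart and skeletal muscle only, while the 4 wildtype mice were controls that the study describes as Lrpprc loxP/loxP, with no Cre named. The promoter that drives Cre is not given in the sources used here, and cells of the heart other than muscle would keep the gene. Total RNA was depleted of cytoplasmic rRNA and primed with random hexamers, so a transcript did not need a poly(A) tail to be read.

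Mitochondrial DNA encodes 3 subunits of complex IV (cytochrome c oxidase), which together form its catalytic core. It also encodes ATP6 and ATP8 of the membrane part of ATP synthase, and cytochrome b, the only mitochondrially made subunit of complex III. These messengers are cut out of long polycistronic transcripts, mostly where tRNAs separate them, and then receive a poly(A) tail. LRPPRC is an RNA-binding protein that keeps mitochondrial mRNAs stable and supports their polyadenylation and translation.

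The annotated ends of the genes show how closely they are packed, and are given here from GENCODE M21 on GRCm38, plus strand, 5′ to 3′. They need not be the ends of the sequences used for counting, since beyond the 50 adenines the deposited record was 72 bases longer than the annotated gene for mt-Co1, 4 longer for mt-Co2 and of equal length for the other 3. Which end holds the extra bases is not given in the sources used here. mt-Co1 lies at chrM:5328-6872 between antisense tRNA genes, mt-Co2 at chrM:7013-7696 between mt-Td and mt-Tk, and mt-Cytb at chrM:14145-15288 before mt-Tt. mt-Atp8_6 spans chrM:7766-8607, where the Atp8 and Atp6 reading frames share 43 bases, and runs into mt-Co3 at chrM:8607-9390 with 1 shared base and no tRNA between them. The last 30 bases of each gene follow, with the stop codon in capitals. mt-Co3 and mt-Cytb end in a single T beyond whole codons, so their stop codon is complete only once adenines are added.
mt-Co1 (chrM:6843-6872): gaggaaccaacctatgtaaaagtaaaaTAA
mt-Co2 (chrM:7667-7696): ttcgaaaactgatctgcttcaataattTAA
mt-Atp6 (chrM:8578-8607): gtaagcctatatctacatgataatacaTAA
mt-Co3 (chrM:9361-9390): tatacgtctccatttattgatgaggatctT
mt-Cytb (chrM:15259-15288): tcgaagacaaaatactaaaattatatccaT

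The next pair of windows shows where one record holds 2 reading frames and where it meets its neighbour. In the first the start codon of Atp6 inside Atp8 is in capitals. In the second the capitals mark the stop codon of Atp6 and the start codon of Co3, which share a base.
mt-Atp8 and mt-Atp6 (chrM:7918-7947): agaattaaaATGaacgaaaatctatttgcc
mt-Atp6 and mt-Co3 (chrM:8593-8622): catgataatacaTAATGacccaccaaactc

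Nuclear copies of these genes decide which record a read is counted on. Gm28661 matched mt-Co2 at 100% over 681 bases, Gm28437 matched mt-Co3 at 100% over 783 bases, and Gm10925 matched the Atp6 part of mt-Atp8_6 at 100% over 678 bases. Gm29216 matched the 3′ part of mt-Co1 at 99.8% over 483 bases. These 4 copies are unprocessed pseudogenes that lie side by side on the minus strand of chromosome 1 (chr1:24613189-24616197). Gm13340 and Gm13341 on chromosome 2 were less alike, at 97.6% of mt-Co1 over 1545 bases and 95.9% of mt-Co2 over 684 bases. The 30 bases where Gm29216 begins are set beside mt-Co1, with differing bases in capitals. After the last difference, A1066T counted from the first base of mt-Co1, the remaining 479 aligned bases are identical, so a read that lies wholly inside that stretch fits both records equally well.
mt-Co1 (chrM:6381-6410): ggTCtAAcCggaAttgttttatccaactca
Gm29216 (chr1:24616168-24616197, minus strand): ggATtGGcAggaTttgttttatccaactca

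The libraries held 35218541 to 47743376 expected counts in the wildtype and 38128303 to 45062420 in the knockout. Mitochondrial rRNA took 44.0% to 46.9% of counts in the wildtype and 65.6% to 67.8% in the knockout, and the 5 mRNAs with their copies took 10.8% to 11.1% and 0.424% to 0.562%. Lrpprc itself fell from 3607, 3946, 3424 and 3682 normalized counts to 597, 504, 605 and 601 (log2 fold change -2.67, SE 0.100, DESeq2 adjusted p = 3.77e-153). Of 8 cardiomyocyte markers 6 were lower and 1 higher, and their summed normalized count went from between 1062886 and 1172900 in the wildtype to between 559057 and 712308 in the knockout. Of the fibroblast markers 3 of 6 were higher, of the macrophage markers 4 of 5 were higher, and of the atrial markers 2 of 4 were lower. None of 5 endothelial, 5 erythroid or 3 tested adipose markers passed the threshold, and 1 of 3 tested skeletal muscle markers was higher. No marker was at 0 in all 8 libraries. In whole tissue, fewer cells of a type and less RNA per cell cannot be told apart, and the part of these shifts in the results on the mRNAs was not tested.

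All 5 mRNAs were lower in the knockout, with and without their copies. TPM, the number of transcripts of a record in a fixed total, is a level per length of transcript within a library, and the plot of levels by library gives it for each mRNA with copies added. Fold changes come from DESeq2 on counts scaled across libraries, with p adjusted over all records. Beside these 5 calls, 33.7% of the 19959 tested records were called in either direction and 15.5% were called lower, both as deposited and, of 19954, with copies added. No knockout library overlapped a wildtype library for any of the 5, against 16.4% of records lower without overlap.

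**Figure D1:**
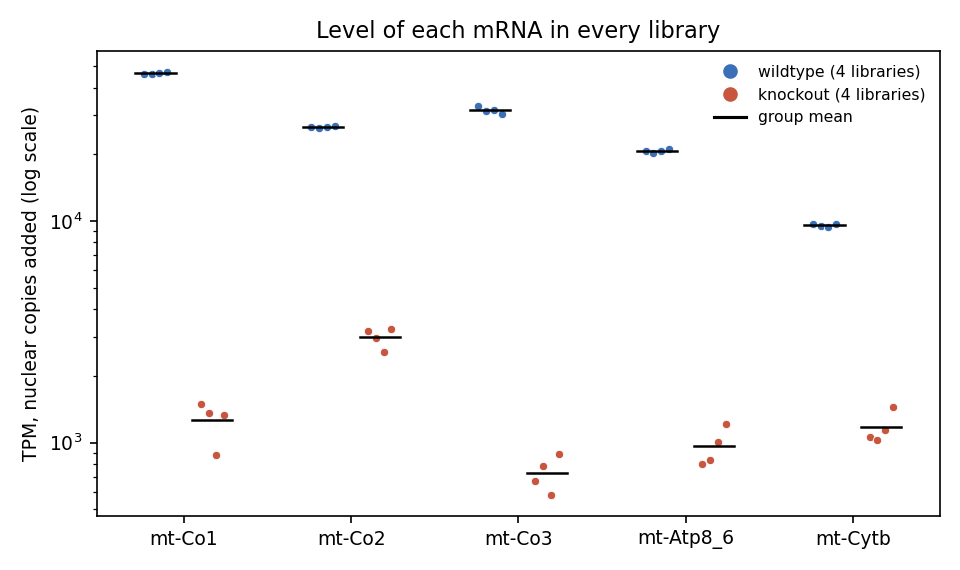
Level of each of the 5 mRNAs in TPM, nuclear copies added, on a log axis. Each point is 1 library (4 wildtype, 4 knockout) and black lines are group means. All knockout points lie below all wildtype points, and mt-Co2 is the highest of the 5 in the knockout while mt-Co1 is the highest in the wildtype.

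mt-Co1 encodes the subunit that carries the haem and copper site where oxygen is reduced. With copies added its TPM was 45854.5, 46200.3, 46751 and 47108 across wildtype replicates 1 to 4, against 1492, 1361, 879.7 and 1325 across knockout replicates 1 to 4. Wildtype libraries differed by little, while knockout replicate 3 stood lower than the other 3. Its normalized count averaged 2198202 ± 67076 in wildtype hearts and 65396 ± 12887 in knockout hearts (SD, n = 4 each), a log2 fold change of -5.07 (SE 0.144, DESeq2 adjusted p = 1.33e-268). The mean knockout level was 2.97% of wildtype with copies, and 3.96% for the record alone. The summed row is scaled by a TPM-weighted length, which the short copy Gm29216 lowers more in the wildtype. The knockout mean with copies therefore lies below the 72040 of the record alone, and the 2.97% depends on that weighting.

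mt-Co2 encodes the subunit that takes electrons from cytochrome c. Its TPM with copies was 26693, 26383, 26628 and 26942 in the wildtype replicates and 3201, 2975, 2551 and 3255 in the knockout replicates. Among the complex IV messengers it kept the most, with 12.3% of the wildtype normalized count. The log2 fold change was -3.02 (SE 0.0845, DESeq2 adjusted p = 2.95e-276).

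mt-Co3 encodes the third core subunit, which carries no metal centre. Its TPM with copies was 32900.5, 31429.5, 31572.5 and 30503 in the wildtype replicates and 672, 787, 583 and 888 in the knockout replicates. It kept 2.53% of the wildtype normalized count, the lowest value of the 5, though its fall could not be told from that of mt-Co1 by the test of their ratio. The log2 fold change was -5.31 (SE 0.0991), with an adjusted p too small for DESeq2 to represent.

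mt-Atp8_6, the shared messenger of ATP8 and ATP6, had a TPM of 20669, 20325, 20772 and 21027 in the wildtype replicates and 799.8, 837, 1006 and 1212 in the knockout replicates, copies added. Knockout replicates 3 and 4 were the higher pair here, whereas replicate 3 was the lowest for mt-Co1, mt-Co2 and mt-Co3. The normalized count fell to 5.10% of wildtype (log2 fold change -4.29, SE 0.129, DESeq2 adjusted p = 1.32e-237). mt-Cytb, the messenger of complex III, had a TPM of 9703, 9535, 9354 and 9730.5 in the wildtype replicates and 1056, 1031, 1143 and 1454 in the knockout replicates. It had no copy and kept 13.4% of the wildtype normalized count, the highest value of the 5 but near that of mt-Co2 (log2 fold change -2.90, SE 0.109, DESeq2 adjusted p = 6.31e-152).

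Spread among animals was wider in the knockout for each of the 5. The coefficient of variation of TPM lay between 0.862% for mt-Co2 and 3.12% for mt-Co3 in the wildtype, and between 10.7% for mt-Co2 and 21.1% for mt-Co1 in the knockout.

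Without copies, the deposited records give different fold changes for 3 of the 5. mt-Co1 alone had a log2 fold change of -4.66 (SE 0.142, DESeq2 adjusted p = 3.42e-233), which is 0.41 less deep than with copies. Most of that gap goes with the TPM-weighted length of the summed row, as the value on the length of the mitochondrial record below shows. mt-Co2 alone had -3.31 (SE 0.302, DESeq2 adjusted p = 5.10e-26), and mt-Co3 alone had -5.84 (SE 0.729, DESeq2 adjusted p = 3.18e-14). The latter 2 rest on few reads. mt-Co2 alone held 414, 404, 466 and 367 expected counts in the wildtype replicates and 29.8, 29.7, 59.3 and 19.8 in the knockout replicates, and mt-Co3 alone held 620.2, 821, 1013 and 1014 in the wildtype and 0, 12.98, 12.93 and 25.8 in the knockout. mt-Atp8_6 alone had -4.27 (SE 0.129, DESeq2 adjusted p = 1.23e-235), and mt-Cytb does not depend on the choice.

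**Figure D2:**
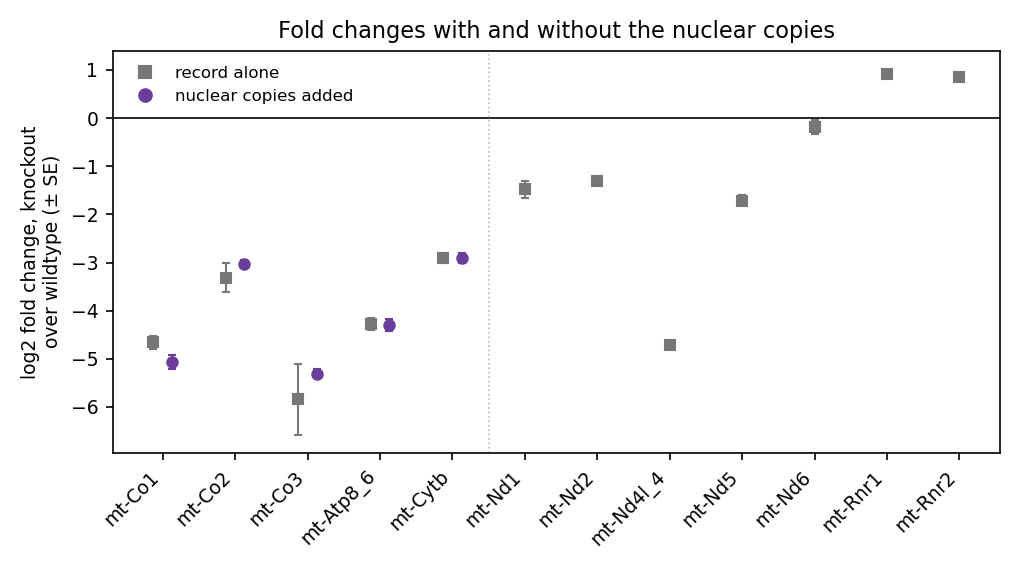
Log2 fold change, knockout over wildtype, with its standard error (DESeq2, 4 libraries per group), for the 5 mRNAs alone (squares) and with nuclear copies added (circles), and to the right of the dotted line for complex I mRNAs and rRNAs as deposited. mt-Co3 alone carries the widest error, 0.729, against 0.0991 with copies, while mt-Rnr1 and mt-Rnr2 lie above 0. mt-Nd3 is left out because nearly all its reads were counted on a copy.

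How reads were divided between a record and its copies differed from gene to gene. For mt-Co2 the copies held 99.9% of the counts of record and copies in both genotypes, and for mt-Co3 also 99.9%. In these 2 genes the groups overlapped (exact permutation test, two-sided adjusted p = 0.657 and 0.305). For mt-Co1 the copies held, of expected counts, 7.72%, 8.04%, 7.77% and 7.75% in the wildtype replicates and 0.339%, 1.98%, 0.0120% and 1.498% in the knockout replicates. The groups did not overlap, and the exact permutation test gave the smallest p that 4 against 4 allows, 0.0286 (two-sided, 0.0571 adjusted over 4 genes, so not past the threshold). The mean difference was -6.86 percentage points by expected counts and -23.9 by TPM, the scale of the levels and ratios given here (exact permutation test, adjusted p = 0.0571 by both).

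Gm29216 carried nearly all of that share, except in knockout replicate 3, where it had none and Gm13340 held 5.92 expected counts. The expected count of Gm29216 was 139509, 160609, 177487 and 198538 in the wildtype replicates and 265, 1254, 0 and 1091 in the knockout replicates. For mt-Atp8_6 the copy Gm10925 held 611, 8451, 7406 and 9563 expected counts in the wildtype and 0 in each knockout library. Wildtype replicate 1 stood far below the other 3, and a count of 0 allows up to 3 counts. The groups did not overlap for this share either, and it also missed the threshold after adjustment (exact permutation test, two-sided p = 0.0286, adjusted p = 0.0571). The cause of the uneven division was not tested.

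Because Gm29216 is much shorter than mt-Co1, adding its TPM raises the level of mt-Co1 more than adding its reads does. With the summed counts placed on the length of the mitochondrial record, a choice made after seeing the data, mt-Co1 stood at 36298 ± 536 (SD, n = 4) in the wildtype on the TPM scale instead of 46478 ± 559 (SD, n = 4), and its log2 fold change was -4.76 instead of -5.07. The order of the 5 mRNAs was the same by both measures.

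In the wildtype the order of levels by TPM was mt-Co1, mt-Co3, mt-Co2, mt-Atp8_6, mt-Cytb. Each mRNA was above the next in 4 of 4 libraries and no neighbouring ranges overlapped. mt-Co1 was 1.47 times mt-Co3, mt-Co3 was 1.19 times mt-Co2, mt-Co2 was 1.29 times mt-Atp8_6, and mt-Atp8_6 was 2.16 times mt-Cytb. With counts on the length of the mitochondrial record, mt-Co1 was 1.24 times mt-Co3. In the knockout the order was mt-Co2, mt-Co1, mt-Cytb, mt-Atp8_6, mt-Co3. mt-Co2 was 2.37 times mt-Co1, with no overlap. mt-Co1 and mt-Cytb could not be ranked, since mt-Co1 was higher in 2 of 4 libraries. mt-Cytb was above mt-Atp8_6 and mt-Atp8_6 above mt-Co3 in 4 of 4 libraries, although their ranges over animals overlapped. The highest of the 5 was 4.85 times the lowest in the wildtype and 4.09 times in the knockout by TPM, and 3.79 and 3.99 times with counts on the length of the mitochondrial record, so neither group had the wider span by both measures.

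The share of each mRNA in the mitochondrial mRNA pool (all 11 mRNA records, copies of the 5 and of mt-Nd3 added) changed in both directions. mt-Co1 went from 27.3% ± 0.447 to 8.31% ± 1.28 (SD, n = 4) and mt-Co3 from 18.6% ± 0.485 to 4.84% ± 0.655 (SD, n = 4). mt-Atp8_6 went from 12.2% ± 0.163 to 6.41% ± 1.27 (SD, n = 4). mt-Co2 took a larger share of a smaller pool, from 15.7% ± 0.151 to 19.8% ± 0.669 (SD, n = 4), and so did mt-Cytb, from 5.63% ± 0.110 to 7.76% ± 1.10 (SD, n = 4). All 5 shifts reached the smallest p this design allows (exact permutation test, two-sided p = 0.0286, also after adjustment over 5), and the shares of 1 pool are not independent of each other. The call for mt-Cytb was lost when any 1 wildtype library was left out (exact permutation test, adjusted p = 0.0571), though the groups still did not overlap. It was also lost with records alone (difference 0.354 points, exact permutation test, adjusted p = 0.857). With records alone, where mt-Co2 and mt-Co3 are left with few reads, the difference for mt-Co2 turned to -0.00424 points and those for mt-Co1, mt-Atp8_6 and mt-Co3 were -26.1, -13.7 and -0.0313 points. Over the alternative measures the difference for mt-Co1 ranged from -26.1 to -15.4 points.

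**Figure D3:**
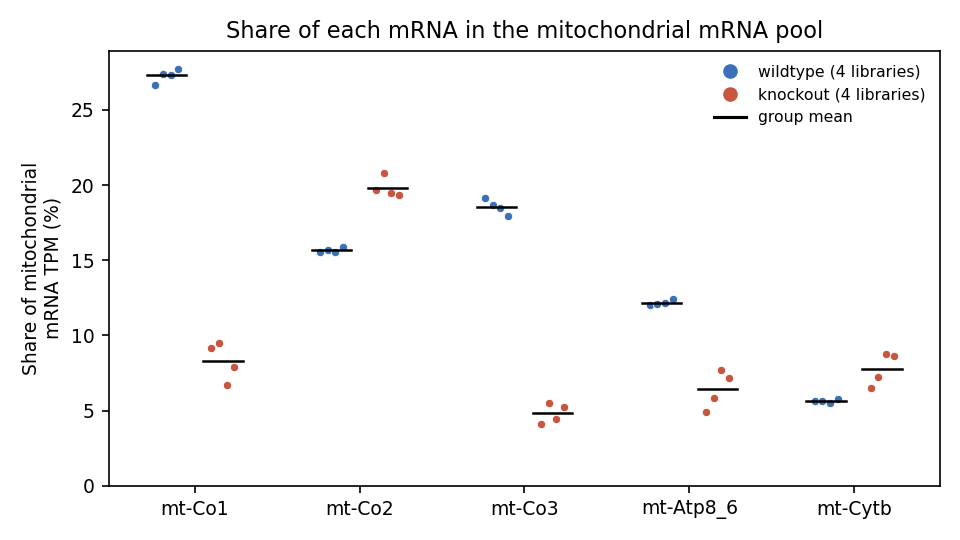
Percent of the TPM of all mitochondrial mRNAs held by each of the 5, nuclear copies added, in 4 wildtype and 4 knockout libraries, with black lines at group means. The points of mt-Co1, mt-Co3 and mt-Atp8_6 drop from wildtype to knockout, and those of mt-Co2 and mt-Cytb lie higher in the knockout, at means of 19.8% and 7.76%.

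Ratios within a library ask whether a pair of mRNAs fell by the same factor, and they do not depend on scaling between libraries. Among 10 pairs, 8 ratios differed between the groups (exact permutation test, two-sided p = 0.0286, 0.0357 adjusted over 10). With records alone the differences of mt-Co1 to mt-Co2, mt-Co1 to mt-Cytb and mt-Atp8_6 to mt-Cytb were -1.24, -1.77 and -1.38, each with the smallest exact permutation p, 0.0286, which is 0.0571 once adjusted over the 6 pairs left. Those of mt-Co1 to mt-Atp8_6 and mt-Co2 to mt-Atp8_6 were -0.39 and 0.84 (exact permutation test, adjusted p = 0.309 and 0.171), and the pairs with mt-Co3 gave no value because it was at 0 in a library. The widest separation was between mt-Co3 and mt-Cytb, whose log2 ratio was 1.76, 1.72, 1.76 and 1.65 in the wildtype replicates and -0.65, -0.39, -0.97 and -0.71 in the knockout replicates. mt-Co3 thus passed from above mt-Cytb to below it in every library, a difference of -2.40 on the log2 scale.

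Within complex IV the messengers separated too. The log2 ratio of mt-Co2 to mt-Co3 was -0.30, -0.25, -0.25 and -0.18 in the wildtype replicates and 2.25, 1.92, 2.13 and 1.87 in the knockout replicates, a difference of 2.29. That of mt-Co1 to mt-Co2 was 0.78, 0.81, 0.81 and 0.81 in the wildtype and -1.10, -1.13, -1.54 and -1.30 in the knockout, a difference of -2.07. Both ratios changed sign in all libraries. mt-Co1 and mt-Co3 fell more nearly alike. Their log2 ratio was 0.48, 0.56, 0.57 and 0.63 in the wildtype and 1.15, 0.79, 0.59 and 0.58 in the knockout, and the groups overlapped (difference 0.22, exact permutation test, two-sided adjusted p = 0.159). With counts on the length of the mitochondrial record this difference was 0.53 and passed (exact permutation test, adjusted p = 0.0357), so the call rests on how the copy of mt-Co1 is weighed.

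mt-Atp8_6 and mt-Co3, which are neighbours with no tRNA between them, did not fall by the same factor. The log2 ratio of mt-Co3 to mt-Atp8_6 was 0.67, 0.63, 0.60 and 0.54 in the wildtype replicates and -0.25, -0.09, -0.79 and -0.45 in the knockout replicates, a difference of -1.005. Against mt-Cytb, mt-Atp8_6 went from 1.09, 1.09, 1.15 and 1.11 to -0.40, -0.30, -0.18 and -0.26, a difference of -1.40. This ratio held the tightest spread among knockout animals, with an SD of 0.0900.

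The log2 ratio of mt-Co1 to mt-Atp8_6 was far less even among knockout animals. It was 1.15, 1.18, 1.17 and 1.164 in the wildtype replicates and 0.90, 0.70, -0.19 and 0.13 in the knockout replicates, a difference of -0.78 with an SD of 0.506 in the knockout against 0.0146 in the wildtype. With counts on the length of the mitochondrial record it was -0.48 and did not pass (exact permutation test, adjusted p = 0.159). By TPM it also missed the threshold when any 1 wildtype library was left out (exact permutation test, adjusted p = 0.0714), though the groups still did not overlap. mt-Co1 to mt-Cytb differed by -2.18 and mt-Co2 to mt-Atp8_6 by 1.28. mt-Co2 and mt-Cytb, the pair that kept the most, had a log2 ratio of 1.46, 1.47, 1.51 and 1.47 in the wildtype and 1.60, 1.53, 1.158 and 1.163 in the knockout. The knockout values lay on both sides of the wildtype ones (difference -0.11, exact permutation test, two-sided adjusted p = 0.429), which does not show that the pair fell alike.

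**Figure D4:**
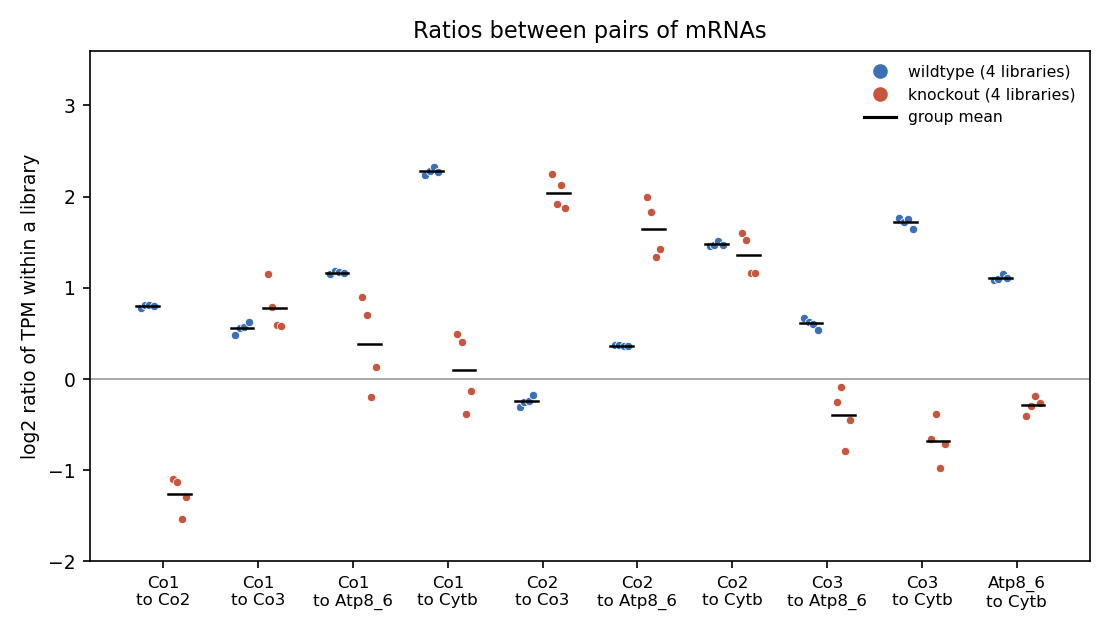
Log2 ratio of the TPM of a pair of mRNAs in each library, nuclear copies added, for all 10 pairs, with 4 wildtype and 4 knockout points and black lines at group means. The groups are apart for 8 pairs and overlap for Co1 to Co3 and Co2 to Cytb, and knockout points scatter more than wildtype points in every pair.

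The mRNAs were next set against the complex I messengers of the same strand, as the difference in log2 TPM from the mean of mt-Nd1, mt-Nd2, mt-Nd3 with its copy, mt-Nd4l_4 and mt-Nd5. mt-Co3 changed by -2.74 relative to that mean, from 2.35 ± 0.0229 to -0.39 ± 0.195 (SD, n = 4). mt-Co1 went from 2.91 ± 0.0424 to 0.39 ± 0.269 and mt-Atp8_6 from 1.74 ± 0.0373 to 0.01 ± 0.254 (SD, n = 4). The differences of mt-Co2 and mt-Cytb were -0.45 and -0.34. Another choice of complex I records moves all 5 values by the same amount. Against mt-Nd1 alone they were -3.58 for mt-Co1, -1.51 for mt-Co2, -3.80 for mt-Co3, -2.80 for mt-Atp8_6 and -1.40 for mt-Cytb. For mt-Co2 and mt-Cytb they were -0.71 and -0.59 without mt-Nd3, and -0.64 and -0.53 with every copy of the complex I genes added. With the 5-record mean, all 5 had an exact permutation p of 0.0286 (two-sided, also after adjustment over 5). The call for mt-Cytb was lost when any 1 wildtype library was left out (exact permutation test, adjusted p = 0.0571), though the groups still did not overlap. With records alone mt-Co1 and mt-Atp8_6 had -1.93 and -1.54, at the smallest exact permutation p, 0.0286, which is 0.0571 once adjusted over the 4 left, and mt-Co2 and mt-Cytb had -0.69 and -0.16 (exact permutation test, adjusted p = 0.190 and 0.314). The complex I mRNAs did not move as one group. The log2 fold change of mt-Nd4l_4, the joint messenger of ND4L and ND4, was -4.72 (SE 0.0960, adjusted p too small for DESeq2 to represent), while those of mt-Nd1, mt-Nd2 and mt-Nd5 were -1.48, -1.31 and -1.72 as deposited. The value of mt-Nd4l_4 leaves out its copies Gm10222 and Gm28439, which matched it at 100% over 294 and 876 bases. mt-Nd3 with its copy went from a mean TPM of 9530.5 in the wildtype to 728.9 in the knockout. mt-Nd6, which was not in the mean, had -0.18 (DESeq2 adjusted p = 0.353).

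Against mitochondrial 16S rRNA (mt-Rnr2), which is cut from a transcript of the same strand, all 5 mRNAs fell. The log2 TPM of mt-Cytb less that of mt-Rnr2 went from -4.88 ± 0.0365 to -8.65 ± 0.254 (SD, n = 4), and that of mt-Co3 from -3.16 ± 0.0736 to -9.33 ± 0.293 (SD, n = 4). The differences were -3.77 for mt-Cytb, -3.88 for mt-Co2, -5.17 for mt-Atp8_6, -5.95 for mt-Co1 and -6.17 for mt-Co3 (exact permutation test, two-sided p = 0.0286 for each, also after adjustment over 5). That of mt-Co1 ranged from -6.01 to -5.54 over the alternative measures. mt-Rnr2 itself had a log2 fold change of 0.86 (SE 0.0942, DESeq2 adjusted p = 3.15e-18).

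The nuclear partners of these mRNAs moved far less. Size factors from total counts moved the median of all tested records from 0.01 to -0.30 on the log2 scale, and total counts without mitochondrial rRNA moved it to 0.43, so each list median is also given as its range relative to the median record over the alternatives run. Of 17 tested nuclear subunits of complex IV, 2 were higher and 5 lower, with a median log2 fold change of -0.28. As background, 18.2% of tested records were called higher and 15.5% lower. Relative to the median record this list stood between -0.29 and -0.20. Cox7a1, the heart and muscle form of a small subunit, fell by 1.65 on the log2 scale (SE 0.147, DESeq2 adjusted p = 1.39e-27). Cox6a1 and Cox8a, subunit forms found widely outside striated muscle, rose by 1.45 (SE 0.174, DESeq2 adjusted p = 2.53e-15) and 1.04 (SE 0.135, DESeq2 adjusted p = 4.03e-13).

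Of 9 nuclear subunits of complex III, 5 were lower and 0 higher, with a median of -0.33 (relative to the median record -0.37 to -0.23). Uqcr11, a small subunit, fell by 0.79 (DESeq2 adjusted p = 2.40e-10), Uqcrfs1, the Rieske iron-sulphur protein, fell by 0.46 (DESeq2 adjusted p = 0.00276), and Uqcrh, the hinge protein, fell by 0.39 (DESeq2 adjusted p = 0.00652). Of 18 nuclear subunits of ATP synthase and its inhibitor, 8 were lower and 1 higher, with a median of -0.23 (relative -0.36 to -0.18). Atp5k and Atp5e fell by 0.77 and 0.70 (DESeq2 adjusted p = 4.64e-12 and 5.58e-09), and Atpif1, the inhibitor of the enzyme, rose by 1.25 (DESeq2 adjusted p = 9.84e-20). Without knockout replicate 3 the numbers called lower were 10 of 17 for complex IV, 7 of 9 for complex III and 15 of 18 for ATP synthase. Other omissions lowered them, to 3 for complex IV without wildtype replicate 1, knockout replicate 2 or knockout replicate 4, and to 3 for complex III without wildtype replicate 2 or knockout replicate 2. With total counts without mitochondrial rRNA the split was 8 higher and 3 lower for complex IV, 3 higher and 1 lower for complex III and 8 higher and 3 lower for ATP synthase. Over all records that scaling called 7917 higher and 1103 lower of 20958, and each of the 3 list medians stayed below that of all records.

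Genes for assembly and RNA handling were called at rates near that of all records, 33.7% in either direction, so their counts are given as a description only. Of 21 complex IV assembly factors, 3 were higher and 3 lower (median 0.07, relative 0.00 to 0.08), led by Cox19 at 1.07 and Coa7 at 0.69, and by Cmc2 at -0.56 (DESeq2 adjusted p = 2.41e-11, 0.000797 and 0.00327). Of 10 factors for complex III and ATP synthase, 1 was higher and 3 lower (median -0.24, relative -0.31 to -0.19), led by Bcs1l at -0.60, Uqcc1 at -0.49, whose groups overlapped, and Ttc19 at -0.43 (DESeq2 adjusted p = 0.0430, 0.0104 and 0.000117). Of 21 factors that cut, modify, tail or degrade mitochondrial RNA, 5 were higher and 2 lower (median 0.09, relative 0.05 to 0.13). Rexo2, an oligoribonuclease, rose by 0.88 and Elac2, which cuts the 3′ end of tRNAs, rose by 0.85, while Fastkd1, an RNA-binding protein of mitochondria, fell by 0.82 (DESeq2 adjusted p = 1.07e-15, 3.16e-09 and 8.55e-08). Of 9 genes used as a gauge of mitochondrial content, 4 were higher and 0 lower (median 0.03, relative -0.01 to 0.07), led by the outer membrane channel gene Vdac2 at 0.65, Tomm20 at 0.52, whose groups overlapped, and the chaperone gene Hspd1 at 0.45 (DESeq2 adjusted p = 1.12e-10, 0.0253 and 0.0114). The split into higher and lower in these lists moved with scaling, as it did over all records. Total counts gave 1 higher and 10 lower for complex IV assembly, 3 higher and 10 lower for the RNA factors and 1 higher and 4 lower for the content genes, beside 1924 higher and 5912 lower of 19961 records, and total counts without mitochondrial rRNA gave 14 and 0, 16 and 1, and 8 and 0, beside 7917 and 1103 of 20958 records. The relative medians, which take out that common shift, are the ranges beside each list.

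**Figure D5:**
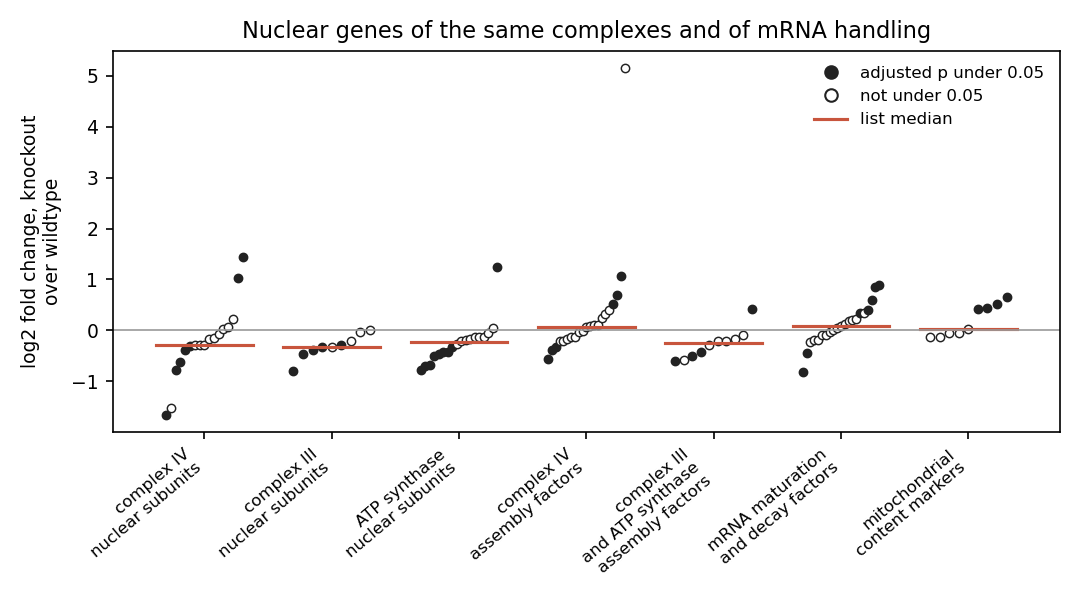
Log2 fold change, knockout over wildtype (DESeq2), of every tested gene in 7 lists of nuclear genes, with filled points for an adjusted p under 0.05 and red lines at list medians. The medians lie between -0.33 and 0.09, and the highest open point, Pet117 at 5.15, was not past the threshold (DESeq2 adjusted p = 0.252) and was listed at 0 in all wildtype libraries.

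The records whose pattern over the 8 libraries was most like each mRNA, by Pearson's r of log2(normalized count + 1) among 15732 nuclear records with a mean of at least 10, all showed a fall in the knockout. Lrpprc was the closest to mt-Atp8_6 (r = 0.998) and mt-Cytb (r = 0.998) and the second to mt-Co2 (r = 0.997) and mt-Co3 (r = 0.996). Pdp2, a phosphatase of pyruvate dehydrogenase, came first for mt-Co3 (r = 0.997), Slc22a3, an organic cation transporter, for mt-Co2 (r = 0.997), and Mpv17, a gene for an inner mitochondrial membrane protein, for mt-Co1 (r = 0.998). The other nuclear records among the closest 3 were Gm31663 and Slc22a3 for mt-Co1, Pdp2 for mt-Co2, Gm42892 for mt-Co3, Gm43672 and Mut for mt-Atp8_6, and Gm43672 and ENSMUSG00000111158.1 for mt-Cytb. Among mitochondrial records the closest were mt-Co2 to mt-Co1 (r = 0.999), mt-Nd4l_4 to both mt-Co2 and mt-Co3 (r = 0.9997 and r = 0.9992), and mt-Cytb and mt-Atp8_6 to each other (r = 0.9996). Between 21 and 45 records had r over 0.99 with each mRNA. All these points share the same libraries and 2 groups far apart, so r mostly records the step between genotypes.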

How the data were processed

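RNA-seq of 8 mouse hearts was analysed, grouped by sample title as 4 wildtype and 4 knockout libraries. The authors made the deposited expected counts with RSEM 1.2.31 and bowtie2 (reverse-stranded, paired-end) against GENCODE M13 plus their own mitochondrial sequences with 50 adenines added. RSEM divides reads that match several records, so expected counts depend on near-identical copies. The deposited TPM values are RSEM levels per length and sum to a constant, so the rise of mitochondrial rRNA lowers other TPM values in the knockout. The deposited FPKM values were not used, and deposited effective lengths are other values in bases. The authors' own table of comparisons (log2 fold change, p-value, mean signal) was not used, nor were 8 columns of normalized counts whose names match no label.

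Counts were rounded and fitted with DESeq2 1.42.0 in R 4.3.3 on all records, genotype only, with effective lengths as offset and median-of-ratios size factors. The study's methods name tximport 1.4.0 and DESeq2 1.16.1 but not these settings. For copies added, record and copies were summed into 1 row with a TPM-weighted length. p was adjusted by Benjamini-Hochberg (threshold 0.05). Values per library were compared by exact two-sided permutation over 70 assignments (scipy 1.17.1), whose smallest p is 0.0286. Copies were checked by blastn 2.17.0 (identity at least 95% over at least 200 bases), which found the same 6 for these mRNAs. Symbols (for 50339 of 50563 identifiers) and positions were taken from GENCODE M21. The scripts for differential expression were tested on simulated data with equal lengths for all records. That simulation held no division of reads between records and copies, so the summing of copies and the length weighting were not tested by it.

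Alternatives were edgeR 4.0.16, no length offset, a filter (10 counts in 4 libraries), other scalings, a replicate block, each library left out, other denominators, records alone and, added after seeing the data, counts on the length of the mitochondrial record. The members and lists were chosen with earlier results of these data known. Genes named were the 5 mRNAs, their copies and comparators, the 3 largest called changes of each list, and the 3 nuclear records and 1 mitochondrial record with the highest r. Within groups no pair of libraries agreed within sampling noise (chi-square per degree of freedom 4.40 to 48.4). Intervals and floors cover counting error only.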

Additional observations from a re-analysis of the deposited data

Results flagged for a closer look

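In 7 of the 121 groups of 4 libraries examined, the highest or lowest library lay far from the other 3 relative to the range (Dixon's criterion), where chance at 1 in 20 would give 6.05. Of the values on the 5 mRNAs, mt-Co1 against 16S rRNA was -9.06 on the log2 scale in knockout replicate 3, with the others between -8.41 and -8.32. For mt-Co3 against 16S rRNA, wildtype replicate 4 had -3.27, with the others between -3.14 and -3.11. The share of mt-Co1 counts on copies was 8.04% in wildtype replicate 2 and 7.72% to 7.77% in the others. Lrpprc had 504 normalized counts in knockout replicate 2 and 597 to 605 in the others. Among nuclear subunits, Cox8a had 3658 normalized counts in knockout replicate 3 (others 2620 to 2702), Uqcrh had 6381 in wildtype replicate 1 (others 6006 to 6066), and Uqcr11 had 5143 in wildtype replicate 4 (others 5279 to 5301).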

How the results depend on the processing

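The log2 fold changes of all 5 mRNAs, alone and with copies, kept their direction and their call in every alternative and with each library left out. With copies added they ranged from -5.36 to -4.64 for mt-Co1, -3.32 to -2.59 for mt-Co2, -5.59 to -4.88 for mt-Co3 and -4.59 to -3.87 for mt-Atp8_6, and mt-Cytb ranged from -3.20 to -2.48.

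Replicate numbers did not pair the animals (correlations of same-numbered deviations -0.03, -0.05, -0.01 and 0.09). With the replicate block the values with copies were -5.09 for mt-Co1, -3.03 for mt-Co2, -5.31 for mt-Co3 and -4.31 for mt-Atp8_6, mt-Cytb was -2.91, and the block called 3 complex IV assembly factors instead of 6 and 5496 records instead of 6728.

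With expected counts, and likewise with counts on the length of the mitochondrial record, the difference of mt-Co1 to mt-Co3 was 0.53 and passed, and that of mt-Co1 to mt-Atp8_6 was -0.48 and did not. With records alone, where mt-Co3 gives no ratio because 1 library is at 0, the following did not pass after adjustment, namely mt-Co1 to mt-Co2 (-1.24), mt-Co1 to mt-Atp8_6 (-0.39), mt-Co1 to mt-Cytb (-1.77), mt-Co2 to mt-Atp8_6 (0.84), mt-Atp8_6 to mt-Cytb (-1.38), against complex I mt-Co1 (-1.93), mt-Co2 (-0.69), mt-Atp8_6 (-1.54) and mt-Cytb (-0.16), and the share of mt-Cytb (0.354 points). The share of mt-Co2 turned to -0.00424 points. Leaving out any 1 wildtype library left mt-Co1 to mt-Atp8_6 (-0.95 to -0.59 over all 8 omissions), mt-Cytb against complex I (-0.40 to -0.27) and the share of mt-Cytb (1.81 to 2.56 points) with an adjusted p above 0.05. In each of these the groups still did not overlap.

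Genes called moved over 1.5 times with total-count scaling in complex IV (14 of 17), complex III (9 of 9) and ATP synthase (18 of 18) subunits, complex IV assembly (11), complex III and ATP synthase assembly (9) and RNA factors (13), where 7836 of all 19961 records were called, 1924 higher and 5912 lower. Without mitochondrial rRNA in the total they were 11, 14, 17 and 8 for complex IV subunits, complex IV assembly, RNA factors and content genes, where 9020 of all 20958 records were called. Over single omissions they ranged from 5 to 12 for complex IV, 3 to 7 for complex III, 8 to 16 for ATP synthase, 3 to 4 for complex IV assembly and 2 to 6 for content genes. Complex III fell to 3 without wildtype replicate 2 or knockout replicate 2, complex IV assembly to 3 without wildtype replicate 1 or 4 or knockout replicate 4, and content genes to 2 without wildtype replicate 4. The causes were not tested.

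With 4 libraries per group the exact tests cannot go below 0.0286, so they cannot rank these differences, and mt-Co2 and mt-Co3 alone rest on at most 59.3 and 25.8 counts in a knockout library.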
